A study of Mus musculus with 32 samples.

Results

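H3K27me3 in wild-type mouse oocytes was compared between E18.5, the last days before birth, and P1, the first day after it. The members were chosen by group label: the 2 samples at each stage with an antibody to H3K27me3, 4 of the 32 samples of the series, each stage being deposited as 1 pooled peak list (2 of 16 lists). The series profiled H3K27me3 and H2AK119ub by CUT&Tag, in which an antibody guides a transposase that cuts and tags the chromatin around the mark. It covered wild-type oocytes at E18.5, P1, P6 (NGO in the labels) and P7 (GO), and P6 and P7 oocytes of PRC1ctrl, PRC1cKO, PRC2ctrl and PRC2cKO animals. All were primary oocytes isolated from the ovary, with Drosophila S2 cells added as a spike-in (for example 2000 S2 cells to 1000 oocytes), and were read as 150 bp reads. No genotype beyond wild type, no strain and no treatment is given for the E18.5 and P1 groups.

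H3K27me3 is the trimethylation of lysine 27 of histone H3, written by Polycomb repressive complex 2 (PRC2), and it marks genes that are held silent. PRC1, the partner complex, ubiquitinates histone H2A (H2AK119ub). Around birth, female germ cells are in meiotic prophase and are being enclosed in primordial follicles. In growing oocytes H3K27me3 is known to spread over broad domains outside promoters, and a small set of genes keeps a maternal imprint in the early embryo through it.

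Because each stage is 1 list made from 2 samples, the comparison has no replicate check and no test was made between the stages. Every share below carries an exact Clopper-Pearson 95% interval where one is given, and the interval covers counting error only. "Lost" and "gained" stand for presence or absence in the lists: a lost peak is an E18.5 peak of which no P1 peak covers even 1 bp, and a gained peak is a P1 peak with no E18.5 peak. In pooled oocytes, a mark on fewer cells and less mark per cell cannot be told apart. Counts refer to autosomes 1 to 19.

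The E18.5 list held 78849 peaks covering 450.2 Mb with a median width of 3.31 kb. At P1 there were 66684 peaks covering 492.3 Mb with a median width of 4.40 kb. There were fewer peaks at P1, and their median width was greater. The weakest peak had a total signal of 6886 at E18.5 and 9660 at P1, so the floor of the lists moved with the stage, and its part in the counts was not tested. A peak lay within 1 kb of a gene end at 9 of 9 granulosa and stroma markers, among them Foxl2, Wt1 and Fshr, at both stages. It lay at 5 of 6 autosomal blood and endothelial markers (Tal1, Kdr, Cdh5, Ptprc and Csf1r). Over all genes the share was 39.4% at E18.5. Among 9 oocyte markers it lay at 4 at each stage: Sohlh1, Lhx8, Zp3 and Gdf9 at E18.5, and Lhx8, Zp3, Gdf9 and Ddx4 at P1. These somatic markers thus carried the mark more often than the oocyte markers did, which is a statement on the mark and not on expression.

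Of the E18.5 peaks, 16473 were lost, 20.89% (20.6 to 21.2%), and together they spanned 43.2 Mb, 9.59% of the length covered at E18.5. Of the P1 peaks, 12342 were gained, 18.51% (18.2 to 18.8%), spanning 42.4 Mb or 8.61% of the P1 length. With equal numbers of peaks in both lists the order of these shares turned, with 15.0% lost and 24.6% gained. Lost peaks had a median width of 2.43 kb against 3.89 kb for kept E18.5 peaks. For gained peaks it was 3.21 kb against 5.05 kb for kept P1 peaks. Peaks that came or went were therefore narrow. They were also weak: total signal stood at a median percentile rank of 20.3 within the E18.5 list for lost peaks and 59.6 for kept ones, and at 18.7 for gained and 58.8 for kept peaks within the P1 list. In the weakest 10% of each list, 54.6% of E18.5 peaks were lost and 52.6% of P1 peaks were gained. In the strongest 10%, 0.0634% were lost and none of the P1 peaks was gained.

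**Figure D1:**
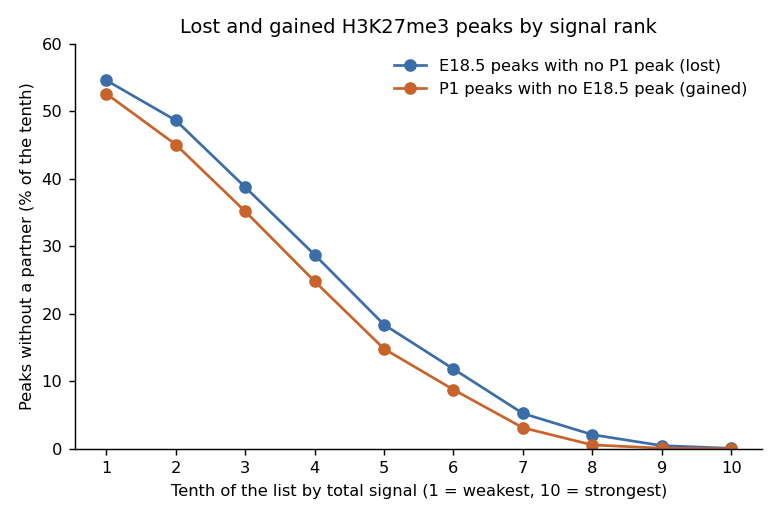
Share of peaks without a partner in the other list (vertical axis, percent of the decile) against the decile of the list by total signal (horizontal axis, weakest to strongest), for E18.5 peaks lost at P1 and for P1 peaks gained. Both lines run from above 50% in the weakest decile to near 0 in the strongest, with lost peaks slightly above gained ones.

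Peaks that came or went were rarer at gene ends than kept peaks. Kept peaks were also wider, with medians of 3.89 kb against 2.43 kb at E18.5 and 5.05 kb against 3.21 kb at P1. Width affects such a share, and peaks of like width were not compared here. Within the lost class 4.28% of peaks lay within 1 kb of a gene end, against 12.3% of kept E18.5 peaks, and 4.15% of gained peaks did so against 13.9% of kept P1 peaks. Inside genes the classes were nearly alike, with 26.8% of lost, 24.9% of kept E18.5, 25.0% of gained and 24.1% of kept P1 peaks. Between genes lay 68.9% of lost, 62.7% of kept E18.5, 70.8% of gained and 62.0% of kept P1 peaks. The median distance to the nearest gene end was 73.7 kb for lost and 95.3 kb for gained peaks, against 50.6 kb and 51.4 kb for the kept peaks of the 2 stages. The autosomes were not alike. Chromosome 19 had the highest share of lost peaks (27.5%) and the lowest share of gained peaks (13.9%), and its covered length at P1 was 0.968 times that at E18.5. Chromosome 12 had the highest gained share (24.6%) and a covered length 1.18 times higher at P1, while chromosome 17 had the lowest lost share (16.4%).

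The 5 widest lost peaks began with a pair in Cgnl1, the gene of paracingulin, a protein of epithelial cell junctions. They lay at chr9:71743043-71774866 (31.8 kb, total signal at rank 97.2 within the E18.5 list) and at chr9:71643580-71661723 (18.1 kb, rank 93.5), in the GRCm38 coordinates of the lists. Both were exceptions to the weakness of lost peaks. The next was a 15.4 kb peak at chr9:57976287-57991713, 6.31 kb from Cyp11a1, the enzyme that starts steroid hormone synthesis. A 14.3 kb peak lay 28.9 kb from Wsb1 (chr11:79196160-79210447) and a 13.9 kb peak 3.99 kb from the predicted gene LOC108168187 (chr14:6481166-6495092). Gained peaks were led by 1 of 19.0 kb in Smug1, a uracil-DNA glycosylase of base excision repair (chr15:103167149-103186119, total signal at rank 82.7 but highest signal at rank 35.4 within the P1 list). Then came a 15.0 kb peak 494.5 kb from Csmd1, a 14.5 kb peak in Enox1, a 14.2 kb peak in the macrophage receptor gene Adgre1 and a 13.5 kb peak 769.3 kb from Apob. In all 5 the highest signal had a lower rank (35.4 to 60.1) than the total signal (76.0 to 82.7), and for 2 of 5 the nearest gene lay far off.

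Most of the length covered at P1 alone was not in gained peaks. The lists shared 368.8 Mb, while 81.3 Mb were covered at E18.5 alone and 123.5 Mb at P1 alone. Of the latter, 41.1% was added to regions with 1 peak in each list, 34.3% lay in gained peaks and 19.0% in regions where E18.5 peaks had merged. At E18.5 the order was another: 53.0% of the length covered at E18.5 alone lay in lost peaks.

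Merging was far more frequent than splitting. In 7412 regions, 2 or more E18.5 peaks corresponded to 1 P1 peak, and this took up 16658 E18.5 peaks, 21.1% of the list. Only 1616 regions went from 1 E18.5 peak to 2 or more P1 peaks. Of the merged regions 5990 joined 2 peaks, 1118 joined 3 and 304 joined 4 or more, up to 10. The 9246 gaps closed had a median length of 1246 bp (interquartile range 739 to 2026 bp). Merging mostly filled short gaps: the median merged region went from 9.76 kb of covered length to 12.3 kb. The widest merged domains were already very broad at E18.5. At Hrh1, a histamine receptor, 4 peaks of 313.4 kb became 1 of 315.5 kb (chr6:114326843-114642578). At Lhx5, a LIM homeobox factor of the developing brain, with the neighbouring Sdsl and Sds, 4 peaks of 273.7 kb became 1 of 282.8 kb (chr5:120203616-120486399). Mn1 and Rbfox3 with Engase each went from 3 peaks to 1, and Zfhx3 from 2 to 1. Split domains included Lmx1b with Mvb12b (1 to 3 peaks), Cbfa2t3, Gli2, which is a hedgehog pathway effector, and Dnmt3l with Aire and Icosl (1 to 2 each). In these splits the covered length hardly differed, for example 138.3 kb and 137.7 kb at Gli2.

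The comparison with other pairs of lists puts the merging in context. From P1 to P6, wild type, 3285 regions merged and 4213 split. From P6 to P7 6167 merged and 1641 split. Lists of control oocytes of 1 stage also differed: from the wild-type P6 list to the PRC2ctrl P6 list 9591 regions merged and 295 split, and to the PRC1ctrl P6 list 8271 merged and 615 split. The lost and gained shares between those control lists ran from 16.9 to 26.5% and from 14.5 to 22.7%, and the shares from E18.5 to P1, 20.89% and 18.51%, lay inside these ranges. From the PRC1ctrl to the PRC2ctrl P6 list 2792 regions merged and 2298 split. The count of gained peaks from E18.5 to P1, 12342, lay above the 7347 to 11471 between control lists. The count of merged regions and the shares of lost and gained peaks lay within the range between control lists of the same stage. The width counts and median ratio did not. From E18.5 to P1, 4183 regions were widened and 948 narrowed by a factor of at least 2, with a median width ratio of 1.11. Between the control lists 2257 to 2690 were widened and 1373 to 2448 narrowed, with median ratios of 0.989 to 1.03. From P6 to P7 4848 were widened and 1621 narrowed, with a median ratio of 1.15. These are counts and not shares, and the number of regions with 1 peak in each list was not compared between pairs. The lowest total signal also went from 6886 at E18.5 to 9660 at P1. It was 9546 in the wild-type, 10598 in the PRC1ctrl and 10510 in the PRC2ctrl P6 list, and its part in the widths was not tested. These pairs share lists with each other, and how each list was made is not stated.

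Of the 40902 regions with 1 peak in each list, 4183 (10.2%) were at least 2 times wider at P1 and 948 (2.32%) at least 2 times narrower. Widened regions went from a median of 2.15 kb to 5.67 kb, and their median total-signal rank from 27.7 to 56.3 within its list. For narrowed regions these were 6.13 and 2.46 kb, and ranks of 69.4 and 24.2. The highest signal followed less often. Among the 4183 widened regions its rank was up by 20 points or more in 900 and down in 695, against 5587 and 6426 of all 40902. The total-signal rank was up by as much in 2447 of the widened regions. Total signal is summed over the width of a peak, so regions chosen for greater width tend to rise in its rank. Nothing is therefore concluded from the contrast of the 2 signals, and ranks within a list do not measure height. Over all these regions the median ratio of P1 to E18.5 width was 1.11 (interquartile range 0.931 to 1.47), with 26916 wider and 13963 narrower.

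The ratio depended on the width at E18.5, which itself enters the ratio. Regions under 3 kb at E18.5 had a median ratio of 1.43, and 22.7% were widened. From 3 to 6 kb the ratio was 1.05, from 6 to 12 kb 0.995 and from 12 to 24 kb 1.01. The 695 regions of 24 kb or more had a median ratio of 1.00 (0.531 to 1.34 over the regions), with none widened or narrowed. These 695 broad regions kept their width within a factor of 2.

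**Figure D2:**
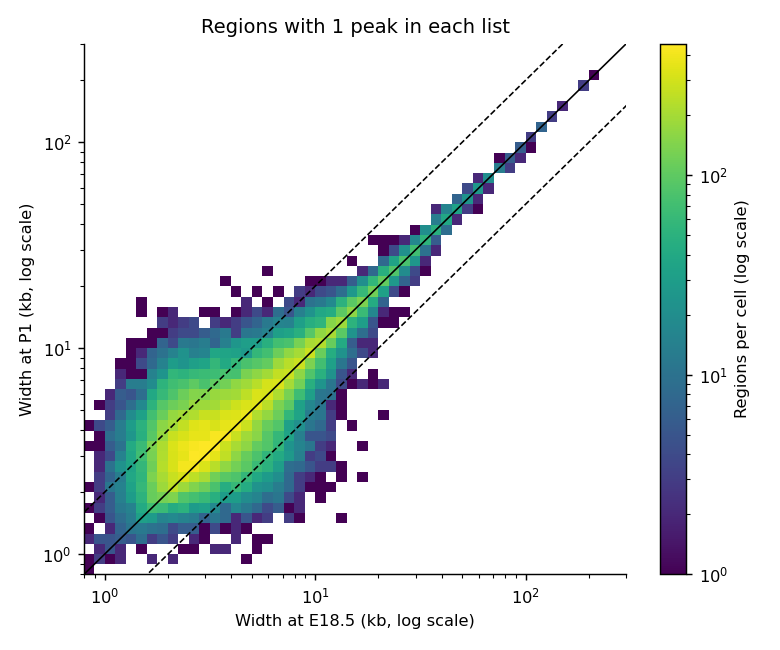
Width at P1 (vertical axis, kb, log scale) against width at E18.5 (horizontal axis, kb, log scale) for the 40902 regions with 1 peak in each list. Colour gives the number of regions per cell on a log scale, the solid line is equal width and the dashed lines a ratio of 2 either way. Regions above 24 kb hug the line of equal width, and the cloud above the upper dashed line is made of regions narrow at E18.5.

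The widest gain in width was at a region 102.4 kb from Ypel5, 3.98 kb at E18.5 and 21.7 kb at P1. In Alk, a receptor tyrosine kinase of neurons, a peak went from 6.18 to 22.6 kb, and in Mapk4, an atypical MAP kinase, from 4.23 to 18.2 kb. In Bmper, a secreted regulator of BMP signalling, it went from 1.49 to 16.3 kb and its total-signal rank from 5.91 to 80.8. Narrowing was widest in Msi2, an RNA-binding protein of stem cells, where a 22.2 kb peak became 4.59 kb. At Jag2, a Notch ligand, a 21.3 kb peak that reached into the gene became a 6.50 kb peak wholly outside it. Between Ms4a13 and Ms4a19 16.4 kb became 2.37 kb, and in Cltb, a clathrin light chain, 20.0 kb became 6.47 kb.

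Windows of 50 kb show where many peaks moved together. Of 49213 windows, 21166 were covered more at P1, 13284 less and 14763 equally. Coverage was lower at P1 by 40 percentage points or more in 19 windows and higher in 16. The deepest drop was at chr2:151750001-151800000, 5.80 kb from the proteasome inhibitor gene Psmf1, from 87.7% covered to 7.16%. Of the 19, 4 adjoining windows lay over Cgnl1, 2 in Msi2 and 1 over Oosp3, an oocyte-secreted protein. The largest increase was from 0 to 56.7% at Grin2d, Kcnj14 and Cyth2 (chr7:45800001-45850000). Others lay in Col5a1, a fibrillar collagen (35.8 to 76.9%), in Grin2a, a glutamate receptor subunit (41.7 to 82.9%), and in Lsamp, a neuronal adhesion protein (22.8 to 68.2%). Of the 19 windows with lower coverage 15 overlapped a protein-coding gene, and of the 16 with higher coverage 8 did.

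Gene bodies of 20 kb or more gave the clearest single-gene contrasts. This step was added after the lists had been read. Of 9575 bodies, 27 (0.282%) were covered 30 points or more less at P1, and 31 (0.324%) 30 points or more more. In Jag2 (chr12:112907803-112929812) coverage was 89.9% at E18.5, 14.2% at P1 and 0 at both P6 and P7. In Cgnl1 (chr9:71626507-71809300) it was 72.5% at E18.5 and 5.79% at P1, with 19 peaks in the gene at E18.5 and 2 at P1. Cgnl1 did not stay bare: 51.2% was covered at P6, 28.6% and 57.1% in the PRC1ctrl and PRC2ctrl lists of that stage, and 0 at P7. The P1 list thus lay below both neighbours at Cgnl1.

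Other bodies with lower coverage included genes of chromatin and of the oocyte. Kdm6b, a demethylase that removes H3K27me3, went from 96.2 to 53.1%, was at 64.1% at P6 and at 0.00457% at P7. In Phf2, a histone demethylase of the Jumonji family, values were 55.4, 10.8, 0.881 and 1.45% over the 4 stages. Slc6a9, a glycine transporter, had 45.1% at E18.5, 12.7% at P1 and 0 at P6 and P7. Among oocyte genes, Oosp1, a secreted oocyte protein, had 52.9, 19.5, 15.7 and 0%. In the PRC1ctrl and PRC2ctrl P6 lists Oosp1 had 65.3 and 37.2%, so its low P6 value was not shared by them. Nlrp4f, an NLR-family gene of the oocyte, had 95.9, 55.0, 0 and 0%. Mcur1, a regulator of mitochondrial calcium uptake, and Stx2, a syntaxin, went from 98.2 and 88.8% to 52.6 and 47.2% at P1 and to 3.53% and 0 at P7. These genes had a lower value at P1 and a still lower one at P7. Foxn1, a transcription factor of the thymus, did otherwise, with 69.7% at E18.5, 30.4% at P1, 77.0% at P6 and 100% at P7. Steap3, a metalloreductase, was alike (68.1, 32.5, 89.9 and 95.5%). Of the 27 bodies, 13 were below 10% at P7 and 9 above 80%. Over all 9575 bodies 5619 and 1269 were, and of the 1744 bodies with 40% or more at E18.5, as all 27 had, 148 (8.49%) were below 10% at P7. The 27 were also chosen by their lower P1 coverage, with a median of 30.7% there. The 1744 are thus no like background for the 27, and bodies of like P1 coverage were not compared.

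Bodies with higher coverage were led by Grin2d, an NMDA receptor subunit, at chr7:45831883-45871194: 28.6% at E18.5, 94.0% at P1 and 100% at P6 and P7. Nearby Lmtk3, a neuronal kinase, had 46.9, 100, 99.2 and 97.1%. Smtn, the smooth muscle protein smoothelin, had 20.9, 72.4, 100 and 100%. The mitochondrial topoisomerase Top1mt had 34.1, 83.2, 93.2 and 100%. In Grin2d and Lmtk3 the P1 value already stood near the later ones. Casz1, a zinc finger factor of heart and retina, was covered step by step in the wild-type lists, with 7.90, 43.4, 57.8 and 97.6%. In the PRC1ctrl and PRC2ctrl P6 lists Casz1 had 37.5 and 25.6%, below its P1 value. Epha2, an ephrin receptor, also rose step by step, with 19.2, 49.6, 95.7 and 100%. The neuronal chromatin remodeller Chd5 had 53.9, 88.9, 96.8 and 100%. Fmo4, a flavin monooxygenase, had 23.8, 73.9, 42.3 and 13.6%, so its P1 value was the highest. Of the 31 bodies, 16 were above 80% at P7 and 3 below 10%, against 1269 and 5619 of all 9575. The 31 were chosen by their higher P1 coverage, with a median of 69.7% there, and the median of all 9575 was 0 at P1. All bodies are thus no like background for the 31, and bodies of like P1 coverage were not compared. At P6 coverage was nearer to the P1 than to the E18.5 value in 19 of the 27 and in 22 of the 31.

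**Figure D3:**
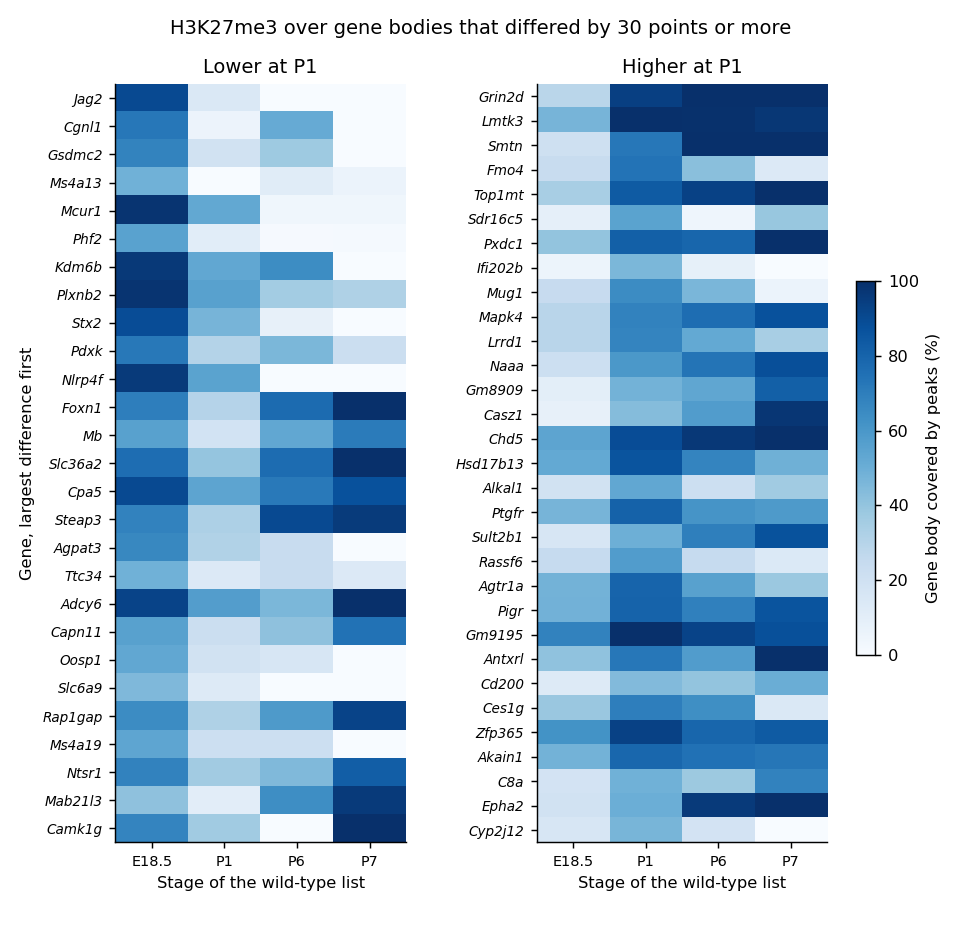
Gene-body coverage by H3K27me3 peaks (colour, percent) by stage, in 4 columns, for the 27 genes with lower and the 31 with higher coverage at P1, each row a gene, ordered by the size of the difference. Among the genes with lower coverage, Jag2, Phf2 and Slc6a9 stay pale after P1 while Foxn1 and Steap3 darken again, and among those with higher coverage Grin2d, Lmtk3 and Smtn stay dark.

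These bodies were chosen by H3K27me3 and not by H2AK119ub. At E18.5 H2AK119ub peaks covered a median of 94.3% of the bodies with less H3K27me3 at P1 and 59.3% of those with more. Over all 9575 bodies it was 26.1%. At P1 the medians were 59.8, 50.9 and 13.4%. The choice itself favoured bodies with much H3K27me3, at a median of 68.1% at E18.5 or 69.7% at P1. Over all bodies that median was 0 at both stages, so they are no like background, and nothing is concluded from the difference. Jag2, Kdm6b, Stx2 and Plxnb2, a semaphorin receptor, were covered by H2AK119ub over 100% of their length at E18.5. Nlrp4f was covered over 4.68%, Oosp1 was at 0 and Ms4a13 at 13.7%. The bodies with lower H3K27me3 at P1 were hence not alike in H2AK119ub.

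**Figure D4:**
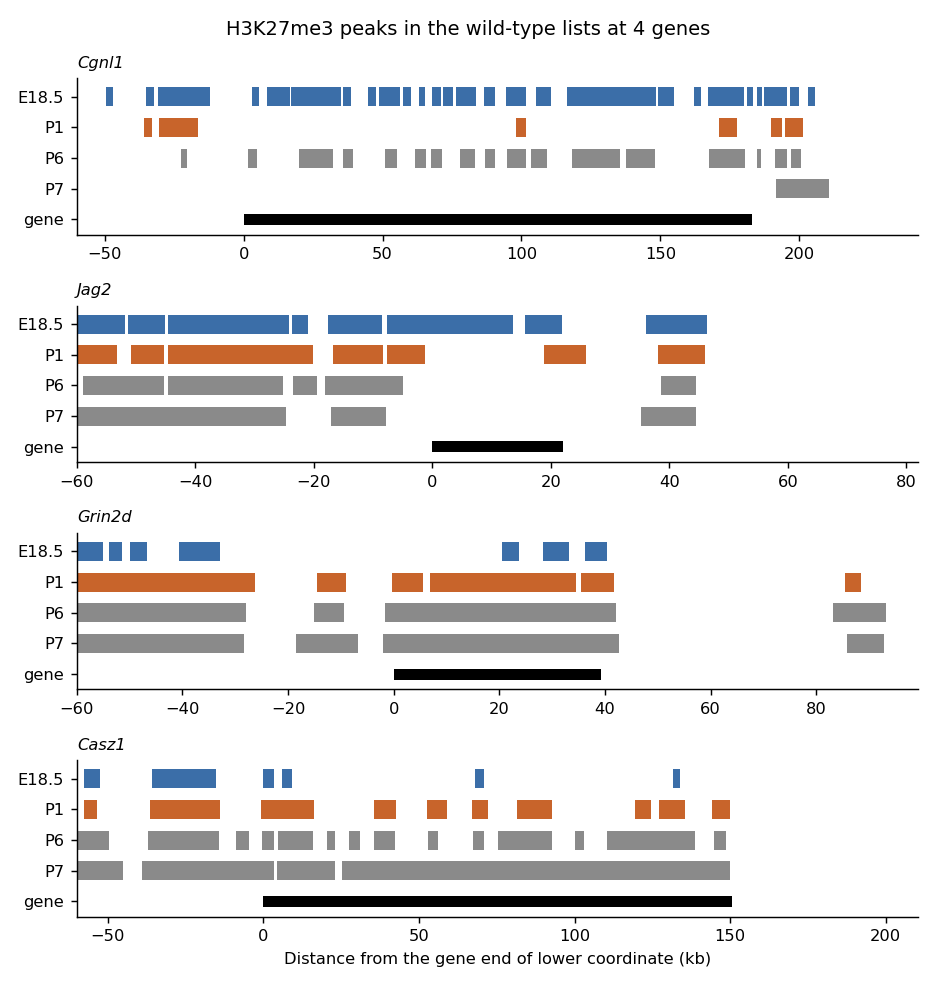
H3K27me3 peaks (bars) of the wild-type lists at E18.5, P1, P6 and P7 around Cgnl1, Jag2, Grin2d and Casz1, with the gene in black. The horizontal axis is the distance in kb from the gene end of lower coordinate, and the drawing shows the emptied body of Cgnl1 at P1, the retreat from Jag2, and the filling of Grin2d and Casz1.

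At gene level, a protein-coding gene was called marked where a peak lay within 1 kb of either end, and its covered length was taken within 5 kb of both ends (at most 20.0 kb). Of 20661 genes, 8131 were marked at E18.5 and 8221 at P1. Of the former 631 lost the mark, 7.76% (7.19 to 8.36%), and of the unmarked genes 721 gained it, 5.75% (5.35 to 6.18%). Another 7500 were marked at both stages. The net direction rests on the length of the lists: with equal numbers of peaks 472 genes lost and 867 gained the mark, and with equal covered length 899 lost and 540 gained it. Lost genes had a median covered length of 3.94 kb at E18.5 and gained genes 4.57 kb at P1, while genes marked at both had 10.0 kb at E18.5. Many calls rested on a short overlap: 379 of the lost and 427 of the gained genes had 1 kb or more of peak within the 1 kb windows. In genes marked at both stages, the covered length was longer at P1 in 4119, shorter in 2435 and equal in 946.

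The longest lost genes were Ms4a13, with 15.4 kb near its ends at E18.5 and 4.66 kb at P1, Srd5a1, a steroid reductase (13.1 and 8.63 kb), and Pag1, an adaptor of lymphocyte signalling (13.0 and 12.4 kb). In Pag1 the covered length thus hardly differed, and the peaks lay just outside the 1 kb windows at P1. Adcy6, an adenylyl cyclase, had 12.9 and 3.70 kb, Mat1a, the liver enzyme that makes S-adenosylmethionine, 12.0 and 2.95 kb, Pomgnt2, a glycosyltransferase, 12.2 and 4.33 kb, and Zfp651 11.5 and 2.35 kb. Adgrf3 and Lgals12, a galectin of fat cells, had 12.5 and 11.3 kb at E18.5 and kept 6.15 and 6.04 kb. The longest gained genes were Rap1gap2, a regulator of the small GTPase Rap1 (1.74 and 15.6 kb), and Tfpi2, a protease inhibitor (9.18 and 15.3 kb). Plcd1, a phospholipase C, had none at E18.5, 12.8 kb at P1, 19.0 kb at P6 and 20.0 kb at P7. Ambn, an enamel protein, had 1.01 and 12.5 kb, and Dzip1, a ciliary protein, 6.88 and 13.1 kb. Of genes marked at both, Ovol1, an epithelial zinc finger factor, went from 20.0 to 7.94 kb and Tmem212 from 12.2 to 2.88 kb, while Maml3, a Notch coactivator, went from 9.58 to 20.0 kb and St6galnac3, a sialyltransferase, from 7.18 to 18.4 kb.

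Promoter sequences are given for some of the genes that came and went, as examples. RefSeq windows on GRCm38.p6, from 250 bases before to 50 bases after the start, were scanned for the letters CG, the site of DNA methylation, which read the same on both strands. Each window below was wholly covered by a peak at 1 stage and uncovered at the other. CG is in capitals, and each sequence is written in the direction of transcription. Covered at E18.5 only were Cgnl1 (chr9:71771553-71771852, minus strand, 30 CG), Sohlh1 (chr2:25847199-25847498, minus strand, 14 CG) and Khdc3 (chr9:73102148-73102447, plus strand, 0 CG). For Cgnl1 (chr9:71626507-71809300) and Khdc3 (chr9:73101381-73106631) the start used lies inside the gene and not at the gene end. Covered at P1 only were Gata2 (chr6:88193641-88193940, plus strand, 32 CG), Fzd10 (chr5:128600856-128601155, plus strand, 45 CG) and Phlda2 (chr7:143502475-143502774, minus strand, 26 CG). Windows rich and poor in CG occurred both ways. Zfp651 (46 CG) and Cltb (29 CG), not printed, were covered at E18.5 only, and Gm5114 (0 CG) and Ces1g (2 CG) at P1 only.
Cgnl1: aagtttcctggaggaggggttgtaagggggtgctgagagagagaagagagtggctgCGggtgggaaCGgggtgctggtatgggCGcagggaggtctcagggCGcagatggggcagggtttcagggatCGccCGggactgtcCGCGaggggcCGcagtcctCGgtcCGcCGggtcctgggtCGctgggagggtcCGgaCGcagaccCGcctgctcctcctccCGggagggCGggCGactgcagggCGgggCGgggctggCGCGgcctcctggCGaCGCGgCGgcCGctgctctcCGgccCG
Sohlh1: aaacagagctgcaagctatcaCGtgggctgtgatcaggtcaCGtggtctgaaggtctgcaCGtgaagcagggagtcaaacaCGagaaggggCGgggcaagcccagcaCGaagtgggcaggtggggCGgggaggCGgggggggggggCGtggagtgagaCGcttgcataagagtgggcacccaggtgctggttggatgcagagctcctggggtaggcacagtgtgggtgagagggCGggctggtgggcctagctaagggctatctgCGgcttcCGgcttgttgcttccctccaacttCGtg
Khdc3: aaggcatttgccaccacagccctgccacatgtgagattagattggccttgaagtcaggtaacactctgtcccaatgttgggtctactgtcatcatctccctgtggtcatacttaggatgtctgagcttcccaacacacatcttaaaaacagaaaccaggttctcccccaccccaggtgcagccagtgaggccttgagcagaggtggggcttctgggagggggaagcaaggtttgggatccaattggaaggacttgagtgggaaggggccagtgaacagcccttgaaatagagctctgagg
Gata2: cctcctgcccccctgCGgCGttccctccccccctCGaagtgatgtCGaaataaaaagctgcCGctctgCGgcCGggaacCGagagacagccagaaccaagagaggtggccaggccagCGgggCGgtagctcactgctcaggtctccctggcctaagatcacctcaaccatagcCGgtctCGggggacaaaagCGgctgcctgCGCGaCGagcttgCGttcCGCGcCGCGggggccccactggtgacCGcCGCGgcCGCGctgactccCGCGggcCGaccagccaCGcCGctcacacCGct
Fzd10: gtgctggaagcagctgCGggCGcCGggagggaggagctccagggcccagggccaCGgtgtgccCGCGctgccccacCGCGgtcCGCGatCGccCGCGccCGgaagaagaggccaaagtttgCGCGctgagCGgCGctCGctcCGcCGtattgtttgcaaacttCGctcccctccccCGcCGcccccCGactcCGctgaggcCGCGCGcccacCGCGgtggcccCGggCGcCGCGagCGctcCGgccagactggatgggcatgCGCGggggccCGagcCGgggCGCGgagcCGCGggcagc
Phlda2: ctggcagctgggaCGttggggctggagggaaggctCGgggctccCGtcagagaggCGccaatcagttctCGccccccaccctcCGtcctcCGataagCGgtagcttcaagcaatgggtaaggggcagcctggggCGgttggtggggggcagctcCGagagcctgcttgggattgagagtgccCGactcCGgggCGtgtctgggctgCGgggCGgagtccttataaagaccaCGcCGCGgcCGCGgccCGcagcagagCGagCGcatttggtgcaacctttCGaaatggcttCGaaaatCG

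Of all 32851 windows in the table, 94.6% held at least 1 CG and 26.5% held 20 or more. Among genes with a window covered at E18.5 only (405), the median was 4 CG and 13.1% (9.96 to 16.8%) held 20 or more. Among those covered at P1 only (586) the median was 8 CG and 29.9% (26.2 to 33.7%) held 20 or more. Windows covered at both stages (4389) had a median of 8 CG and 24.8% with 20 or more. Windows with 20 or more CG, such as those of Gata2, Fzd10 and Phlda2, were thus a larger share of those covered at P1 only than of those covered at E18.5 only, among which Cgnl1 was one of the richer. Both shares lay below the 45.4% over genes unmarked at both stages. By gene call, lost genes had a median of 6 CG and gained genes 12, from the 82.3% and 81.8% of them with a window. With 20 or more CG were 25.2% (21.6 to 29.2%) of the lost and 32.0% (28.3 to 36.0%) of the gained genes, and these intervals overlapped. Genes unmarked at both stages had a median of 18. For genes marked at both stages this comparison is void, because 76.4% of them, under 80%, had a window.

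Gene lists were read by role, first the genes the oocyte uses. Of 24 genes of the egg coat and oocyte growth, 16 were marked at E18.5, 14 at P1, 7 at P6 and 2 at P7. Lost were 2 of the 16 (12.5%), against 7.76% over all marked genes. They were Gja4, the connexin that joins oocyte and granulosa cells (3.07 kb at E18.5 and 0 at P1), and Zp2, a zona pellucida protein (1.87 kb and 0). Of the alternatives that could alter the call, it held in 4 of 7 for Gja4 and in 3 of 6 for Zp2. Of the 14 kept, 9 were shorter at P1, 3 longer and 2 equal, whereas over all kept genes more were longer. Zp3, another zona protein, had 15.2, 13.3, 0 and 0 kb over the 4 stages. Gdf9, the growth factor that the oocyte sends to its follicle, had 6.19, 2.20, 0 and 0 kb. Oosp1 and Oosp2 went from 13.1 and 18.0 kb to 6.56 and 12.7 kb at P1. Zar1, an RNA-binding protein of the egg, did not shorten, with 13.1 and 14.2 kb. The summed length over the list was 177.0, 149.2, 67.6 and 18.3 kb. Of the 16 genes marked at E18.5, 12.5% were still marked at P7, against 82.6% of all genes marked at E18.5. With equal numbers of peaks in the lists this list had no loss and no gain from E18.5 to P1.

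Of 27 maternal effect genes, whose products the embryo needs before its own genes act, 12 were marked at E18.5, 10 at P1, 5 at P6 and 4 at P7. Lost were Npm2, a nuclear chaperone (8.47 and 4.91 kb), Zbed3 (7.46 kb and 0) and Khdc3 (2.29 kb and 0), the latter pair members of the subcortical maternal complex, all with less than 1 kb of peak in the windows. That is 3 of 12, against 7.76% over all marked genes, and with equal numbers of peaks the list had 2 losses and 2 gains. Dppa3, a protector of maternal DNA methylation, was gained (0, 7.64, 0 and 8.03 kb over the 4 stages). That is 1 of 15 unmarked genes, against 5.75% over all unmarked genes. The KRAB zinc finger gene Zfp57, which guards imprints, was marked at both but went from 19.3 to 10.9 kb, and to 0 at P6 and P7. Padi6 went from 9.37 to 5.17 kb. Of 23 oocyte transcription factors and dormancy genes, 4 were marked at E18.5 and 3 at P1. Sohlh1, a factor that starts the oocyte programme, was the loss (2.89 kb and 0), and Lhx8, another, had 13.3, 10.0, 8.15 and 6.37 kb.

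Imprinted genes that depend on maternal H3K27me3 went the other way over the series, with 15 of 27 marked at E18.5, 15 at P1, 18 at P6 and 25 at P7. Bmp7, a growth factor (3.38 and 8.51 kb), and Gab1, a signalling adaptor (0 and 3.14 kb), were gained. That is 2 of 12 unmarked genes, against 5.75% over all unmarked genes. Mbnl2 and Sla were lost, 2 of 15 against 7.76% over all marked genes. Yet the covered length near Mbnl2, a splicing regulator, was 8.53 kb at E18.5 and 9.65 kb at P1. Slc38a1, an amino acid transporter, was marked at both, with 9.38 and 14.9 kb. Sfmbt2, a Polycomb gene of the placenta, had 8.26 and 9.01 kb. The summed length was 183.2, 202.6, 240.1 and 358.7 kb. Most of the imprinted set's added length came after P1. Of 45 canonical imprinted genes, 22 and 23 were marked, and Phlda2, a brake on placental growth, was at 0, 6.28, 9.12 and 10.8 kb.

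Among signalling genes, 21 of 29 Wnt ligands and receptors were marked at E18.5, 25 at P1, 27 at P6 and 26 at P7. All 19 Wnt ligands were marked at both stages. The 4 gains, of 8 genes unmarked at E18.5 (5.75% over all unmarked genes), were receptors of the Frizzled family, of which 2 of 10 were marked at E18.5, 6 at P1 and 8 at P6 and P7. Fzd1 had 0 kb at E18.5, 9.29 kb at P1, 9.76 kb at P6 and 9.29 kb at P7. Fzd8 had 0, 5.19, 6.04 and 5.16 kb. Fzd10, with the most CG of the promoters printed, had 0, 4.31, 10.0 and 13.0 kb, and Fzd2 0, 2.02, 8.80 and 9.61 kb. H2AK119ub was already present near all 4 at E18.5, with 8.31, 7.01, 13.0 and 10.7 kb, and it was also present near the 4 Frizzled genes without a gain, with 6.64 kb at Fzd3, 6.66 kb at Fzd5, 5.22 kb at Fzd6 and 6.14 kb at Fzd7. Fzd6 and Fzd7 had none at E18.5 and P1 and were marked later, with 10.7 and 10.6 kb at P7, and Fzd3 and Fzd5 were at 0 in all 4 lists. Fzd9 went from 3.28 to 7.49 kb. Among the ligands, Wnt2b went from 2.43 to 5.06 kb and Wnt5b from 10.0 to 15.1 kb, while Wnt3a went from 20.0 to 17.1 kb. Of the alternatives that could alter the call, it held in 7 of 7 for Fzd1 and Fzd10, in 4 of 6 for Fzd8 and in 2 of 6 for Fzd2.

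In smaller sets the gains were few genes each, and are to be read against the 5.75% gained over all unmarked genes. In the Fgf family 18 of 24 genes were marked at E18.5 and 20 at P1 (2 of 6 unmarked gained), with the receptor Fgfr3 (2.21 and 7.93 kb) and Fgf11 (0 and 6.35 kb) gained. In the hedgehog pathway it was 7 and 9 of 11 (2 of 4), with the receptor Ptch1 (1.43 and 5.6 kb) and the transducer Smo (10.1 and 8.29 kb) gained, the length near Smo being shorter at P1. In the Notch pathway it was 6 and 7 of 9 (1 of 3), with the receptor Notch1 gained (3.76 and 5.58 kb), while the body of its ligand gene Jag2 had lower coverage. With windows of 5 kb the hedgehog and Notch lists had no gain. Gata2, a factor of blood and endothelium, had 0, 6.61, 14.6 and 19.0 kb and was the gain that made all 5 Gata genes marked. Of 41 forkhead genes 30 and 32 were marked (2 of 11), with Foxc1, a factor of mesoderm and eye, at 5.86 and 10.3 kb. Of 41 Polycomb subunits and partners 8 and 13 were marked (5 of 33), but of the 5 gains (Asxl3, E2f6, Kdm2b, Lcor and Pcgf5) Pcgf5, a subunit of variant PRC1, was the sole gene with 1 kb or more of peak in the windows (0 kb at E18.5, 2.91 at P1, 5.63 at P6 and 13.6 at P7).

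Several families had the same number of marked genes at both stages with no loss or gain: 39 of 39 Hox genes, 57 of 57 clustered protocadherins, 12 of 18 Sox genes, 12 of 15 T-box genes and 39 of 43 glutamate and GABA receptors were marked. The calls in the next lists are to be read against 7.76% lost and 5.75% gained over all genes. Of 103 homeobox and paired factors 99 and 100 were marked, with Isl2, a LIM homeobox factor of motor neurons, gained (1 of 4 unmarked). Of 53 lineage bHLH factors 41 were marked at each stage. Hes1, a Notch target, was lost (1 of 41 marked) and Hes7, of the segmentation clock, gained (1 of 12 unmarked). Of 91 potassium channels 78 and 79 were marked. Kcnh1 (4.30 kb and 0) and Kcnt1 were lost (2 of 78 marked), and Kcnc4, Kcnj14 and Kcnmb3 gained (3 of 13 unmarked). The olfactory receptors, a large family in gene clusters, were marked in 353 of 1100 at E18.5, 311 at P1, 317 at P6 and 169 at P7. Of the 353, 70 (19.8%) were lost, and of 747 unmarked members 28 (3.75%) were gained, against 7.76% and 5.75% over all genes. With equal numbers of peaks in the lists, 41 were lost and 46 gained, so the direction of the net difference rests on the length of the lists.

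**Figure D5:**
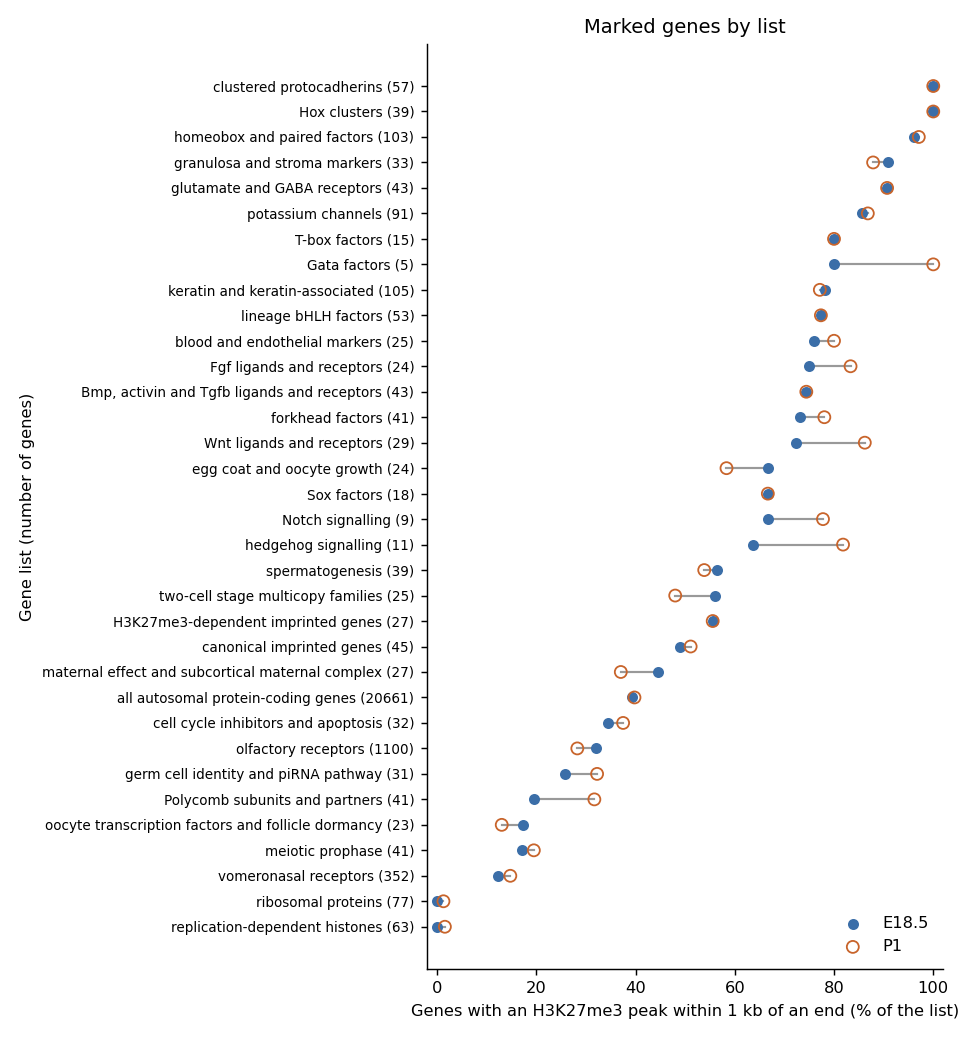
Share of each gene list marked by H3K27me3 within 1 kb of a gene end (horizontal axis, percent) at E18.5 (filled) and P1 (open), with the number of genes in brackets and the lists ordered by the E18.5 share. Hox and protocadherin genes sit at 100% at both stages, the Wnt, hedgehog, Fgf, Gata and Polycomb lists lie to the right at P1, and the egg coat and maternal effect lists to the left.

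The later lists, which the rule did not use, tell which differences lasted. Of the lost peaks, 51.0% had no H3K27me3 peak at P6 or P7, and 20.2% had one at both. Of the gained peaks, 40.5% had none at either later stage and 27.8% had one at both, whereas 60.9% of kept P1 peaks were present at both. Width affects such shares, so peaks of 3 to 6 kb were also compared. At P6 a peak lay over 42.8% of lost and 86.3% of kept E18.5 peaks of that width, and over 51.0% of gained and 81.5% of kept P1 peaks. H2AK119ub of the same stage lay over 44.5% of lost against 53.2% of kept E18.5 peaks, and over 38.0% of gained against 50.8% of kept P1 peaks. In PRC2cKO oocytes at P6 the shares with H3K27me3 were 24.6% for lost and 71.9% for kept E18.5 peaks, against 41.5% and 86.1% in PRC2ctrl. For gained and kept P1 peaks they were 32.8% and 65.2%, against 48.4% and 81.1%.

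Of the 631 lost genes 41.8% were marked at P6 and 46.1% at P7, near the 42.4% and 46.4% over all 20661 genes. Of the 721 gained genes 63.2% were marked at P6 and 61.7% at P7. Genes marked at both E18.5 and P1 were marked in 93.7% at P6 and 85.7% at P7, and genes unmarked at both in 8.63% and 20.5%. In the PRC2cKO list 38.3% of the gained and 18.7% of the lost genes were marked, against 62.0% and 41.4% in PRC2ctrl. H2AK119ub was present at E18.5 at 71.7% of the gained genes, before their H3K27me3 was called, and at 59.4% of genes unmarked at both stages. Gata2, Plcd1 and Fzd10 were among the gained genes whose covered length was still higher at P7 than at P1, and Dppa3 was among those bare at P6.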

How the data were processed

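CUT&Tag with antibodies to H3K27me3 or H2AK119ub was made on 2 samples per group, and the authors deposited 1 pooled peak list per group. The deposited lists have no header. The authors gave each peak 2 numbers, read here from their values as the total signal over the peak and, as a score, the highest signal in it. How the authors scaled the deposited signal and score is not stated, so both were ranked only within a list. The submitters' processing notes name Trim Galore 0.6.10, Bowtie2, Picard 3.0.0, SAMtools and deepTools and the builds GRCm38 (mm10) and dm6. The peak caller, its threshold, the pooling, and the depth are not given in the sources.

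Peaks on autosomes 1 to 19 were compared by overlap of 1 bp or more with Python 3.11.15, numpy 2.4.6, pandas 2.3.3 and scipy 1.17.1, and the scripts were checked on simulated data with known lost, gained and merged regions. Genes are RefSeq protein-coding genes of GRCm38.p6. Both gene ends were used because the gene table gives no strand, and strand came from the promoter table where a start was needed. A gene or region was named if it was a list member that lost or gained the mark (up to 6 a direction), among the 10 longest losses or gains, or among the 5 most extreme of a kind. Gene bodies, 50 kb windows and further genes were chosen after their values were seen, and the members and lists were chosen with earlier results of these data known. Alternatives were equal numbers of peaks, equal covered length, the upper 50% of each list, joined peaks, other overlaps, widths and windows. The PRC1cKO lists were not used.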

Additional observations from a re-analysis of the deposited data

Results flagged for a closer look

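Some peaks lay outside the chromosomes compared here. Chromosome Y, which oocytes lack, held 27 peaks in the E18.5 H3K27me3 list, 24 in the P1 list and 16 in the wild-type P6 list. The other 11 lists used had none. Unplaced contigs held 99 peaks at E18.5 and 86 at P1. What these peaks come from was not tested, and these chromosomes enter no value of the report, only 1 alternative with chromosomes X and Y added.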

How the results depend on the processing

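With equal numbers of peaks, the strongest of each list, 9996 E18.5 peaks (15.0%) were lost and 16374 P1 peaks (24.6%) gained, so the order of the shares turned. With equal covered length 23911 (30.3%) were lost and 5023 (9.80%) gained. In the upper 50% of both lists 7379 were lost and 5100 gained by total signal, and 8365 and 6314 by highest signal. Against the whole other list the upper 50% had 1552 lost (3.94%) and 836 gained (2.51%). With peaks 5 kb apart or less joined, 8927 were lost and 7078 gained, with 2659 regions merged and 1918 narrowed. Asking for 50% of a peak to be covered gave 19007 gained. A width ratio of 1.5 gave 9706 widened and 2851 narrowed, and a ratio of 3 gave 989 and 157. Equal covered length gave 602 narrowed. The upper 50% by total signal gave 1859 widened, 263 narrowed, 3535 merged and 720 split.

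Genes lost and gained stayed within 1.5 times of 631 and 721, but their net direction did not hold: 472 lost and 867 gained with equal numbers, 899 and 540 with equal covered length, and 869 and 702 with 5 kb windows. Of the named lost or gained genes, 110 held and 9 did not with equal numbers, 83 and 36 with 1 kb of the window covered, 47 and 72 with 5 kb windows, and none reversed. For gene bodies, alternatives chosen after seeing the data gave 103 lower and 132 higher at 20 points and 11 and 9 at 40 points. Equal numbers gave 49 higher and equal covered length 50 lower. The upper 50% by total signal gave 53 lower and 49 higher, and by highest signal 63 and 71. Under the last setting C8a (-4.37 points) and Mug1 (-4.50 points) reversed. Of the 64 alternative values of the main counts 32 moved and 32 did not, and the cause of the moves was not tested beyond the smaller lists the settings make.

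No paired analysis was possible because each group is 1 pooled list. For the same reason no sample was left out in turn. The depth behind the lists is unknown.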

Other observations

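Further germline lists had small differences in both directions. Their calls are to be read against 7.76% of marked genes lost and 5.75% of unmarked genes gained over all genes. Of 31 genes of germ cell identity and the piRNA pathway, 8 were marked at E18.5 and 10 at P1. Tdrd1, a piRNA factor, was lost (1 of 8 marked). Gained (3 of 23 unmarked) were Prdm14, a factor of primordial germ cells, Utf1, a chromatin protein of stem cells, and Ddx4, the germ cell RNA helicase. In Ddx4 263 bp of peak lay in the windows. Of 41 meiotic prophase genes 7 and 8 were marked, with Prdm9, which places meiotic recombination, gained (1 of 34 unmarked). Of 39 spermatogenesis genes 22 and 21 were marked, with Tssk3, a testis kinase, lost (1 of 22 marked).

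Outside the germline lists, 11 and 12 of 32 cell cycle inhibitors and apoptosis genes were marked. Bcl2l1, a survival factor, was lost (1 of 11 marked). Bbc3, which promotes cell death, and Cdkn2b, a cell cycle inhibitor, were gained (2 of 21 unmarked). In the multicopy families active at the 2-cell stage 14 and 12 of 25 were marked, with Tdpoz1 and Tdpoz9 lost (2 of 14 marked). Vomeronasal receptors were marked in 43 of 352 at E18.5 and 52 at P1, with 9 lost and 18 gained. That is 20.9% of the marked and 5.83% of the unmarked members, against 7.76% and 5.75% over all genes. With equal covered length 14 were lost and 9 gained, so this difference reversed. Some members of these families are close copies, whose reads the authors' alignment may have split between them, which was not tested.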
